A study of Homo sapiens with 6 samples.

Results

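The 9 genes described here encode subunits of the Polycomb repressive complexes: EZH2, EZH1, EED, SUZ12 and JARID2 of Polycomb repressive complex 2 (PRC2), and BMI1, RNF2, CBX2 and CBX7 of Polycomb repressive complex 1 (PRC1). They were chosen by symbol, and all 9 were found among the 23228 genes of the deposited count files. The data are 6 RNA-seq libraries of polyadenylated RNA from MDA-MB-231, an established human triple-negative breast cancer cell line grown in DMEM with serum. All cells received shRNA-carrying lentivirus and were kept in puromycin for a week. In 3 libraries the shRNA was a scrambled one, and in the other 3 it was directed at SCUBE3, a secreted EGF-domain protein.

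The library labels need a caution before any result. The targeted transcript, SCUBE3, was counted 96, 91 and 80 times with the scrambled shRNA and 99, 107 and 101 times with the directed one, and it did not pass the test (log2 fold change 0.03 ± 0.14 SE; 95% interval -0.26 to 0.31; adjusted p = 0.871 by edgeR's quasi-likelihood test). The labels say that SCUBE3 was checked by western blot, which was not analysed here. The second group is therefore called "labelled knockdown", and every direction below follows that label. No label says that replicates were separate cultures. The p-values then reflect library-to-library spread alone, possibly technical. The labels name neither the hairpins nor how many cell pools were transduced, and an effect of the hairpin's target and a difference between 2 cell populations cannot be told apart. Between 21348509 and 25520901 reads per library fell in genes. Levels are in CPM, read counts scaled to library size (SD, n = 3). VIM, a mesenchymal-like breast cancer line marker, was at 4370 ± 109 CPM in scramble and 2394 ± 77.6 in the other group. Of 8 mesenchymal-like markers, 5 were lower and 2 higher, and their summed level was 9893 to 10355 CPM against 6912 to 7078 CPM. Over all genes tested, 42.5% were lower and 43.4% higher. SPARC, the marker not called, was at 0.646 ± 0.102 and 0.728 ± 0.147 CPM. Whether both groups hold the same kind of cell was not tested. MSN (-1.15 ± 0.03 as log2 fold change and SE) and FOSL1 (-1.07 ± 0.03) fell like VIM, and CAV1 (1.10 ± 0.03) rose. ESR1, the oestrogen receptor gene, had 8 reads in the 3 scramble libraries together and 0 in the others.

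Polycomb proteins keep genes silent through 2 histone marks. PRC2 places methyl groups on lysine 27 of histone H3: EZH2 or its paralogue EZH1 is the catalytic subunit, EED binds the methylated product and stimulates the enzyme, SUZ12 holds the core together, and JARID2 helps recruit it to chromatin. PRC1 attaches ubiquitin to histone H2A through RNF2 (RING1B) or RING1, paired with a PCGF protein such as BMI1, and in its canonical form a CBX protein such as CBX2 or CBX7 reads the methyl mark. EZH2 is typical of dividing cells, is transcribed under control of E2F factors, and is often abundant in triple-negative breast cancer, while EZH1 is found also in resting cells.

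The start-site windows of the 3 core PRC2 genes that were lower and of the catalytic paralogue that was higher are shown, since EZH2 and EZH1 carry the shift between the catalytic subunits described below and EED and SUZ12 complete the core. Each sequence is RefSeq's window for GRCh38.p14, from 250 bases before to 50 bases after the annotated start, written in the sense of the gene, with matches to an E2F-type motif in capitals. RefSeq's table held windows for 8 of the 9 genes, and CBX2 had no entry.
EZH2, chr7:148884242-148884541, minus strand: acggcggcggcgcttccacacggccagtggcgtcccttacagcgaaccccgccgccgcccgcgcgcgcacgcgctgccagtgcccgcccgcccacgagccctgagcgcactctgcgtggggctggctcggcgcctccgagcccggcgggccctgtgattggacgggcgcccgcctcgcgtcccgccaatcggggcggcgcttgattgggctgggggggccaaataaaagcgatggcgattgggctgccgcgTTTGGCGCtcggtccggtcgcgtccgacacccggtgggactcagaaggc
EED, chr11:86244503-86244802, plus strand: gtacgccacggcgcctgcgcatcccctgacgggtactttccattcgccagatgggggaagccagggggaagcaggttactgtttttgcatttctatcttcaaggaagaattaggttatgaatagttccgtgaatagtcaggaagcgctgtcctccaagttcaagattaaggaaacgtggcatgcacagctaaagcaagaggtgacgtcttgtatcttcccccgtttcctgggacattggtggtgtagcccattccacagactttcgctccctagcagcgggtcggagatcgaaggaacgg
SUZ12, chr17:31936757-31937056, plus strand: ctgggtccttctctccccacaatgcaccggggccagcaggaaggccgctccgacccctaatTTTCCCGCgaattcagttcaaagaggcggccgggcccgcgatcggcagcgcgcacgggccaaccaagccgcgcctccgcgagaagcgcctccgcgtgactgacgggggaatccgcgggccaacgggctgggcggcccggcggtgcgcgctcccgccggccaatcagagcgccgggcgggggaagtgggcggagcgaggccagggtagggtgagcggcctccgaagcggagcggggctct
EZH1, chr17:42744991-42745290, minus strand: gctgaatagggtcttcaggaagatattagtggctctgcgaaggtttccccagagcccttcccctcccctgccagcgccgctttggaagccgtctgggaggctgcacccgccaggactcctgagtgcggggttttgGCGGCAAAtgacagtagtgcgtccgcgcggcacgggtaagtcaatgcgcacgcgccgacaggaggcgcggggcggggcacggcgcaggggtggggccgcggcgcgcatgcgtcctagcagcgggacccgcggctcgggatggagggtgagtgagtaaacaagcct

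The motif was searched on both strands as TTTCCCGC, TTTGGCGC, TTTCGCGC or TTTGCCGC. EZH2 held 1 match, which began at base 2 of the transcript, while a further RefSeq window of EZH2 from a downstream start, not shown, held none. SUZ12 held 1 match that began 189 bases before its start, and EZH1 held 1 on the opposite strand, 115 bases before its start. Of 35116 windows of this length in RefSeq's table, 3.31% held a match, and the EED window held none of these letters. The letters CCAAT, the core of the NF-Y box, occurred 4 times on either strand in the EZH2 window and once each in those of EED and SUZ12, where 34.6% of all windows held at least 1. EZH2's window had 46 CG dinucleotides and SUZ12's had 40, against 16 for EED and a median of 14 over all windows. Of the higher genes, EZH1 had 30 CG dinucleotides and no CCAAT, and CBX7, not shown, had 50 and 1 CCAAT. JARID2, also higher and not shown, had 24 and 1 CCAAT, and 40 and no CCAAT in its downstream window. RNF2, which was lower and is not shown, had 41 CG dinucleotides and no CCAAT. The windows of JARID2, BMI1, RNF2 and CBX7 held no E2F-type match. A match is a description of the sequence and not a binding site, and EZH2, SUZ12 and EZH1 each held one although the first was lower and the last higher.

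Across the 9 genes, EZH2, EED, SUZ12 and RNF2 were lower and EZH1, JARID2 and CBX7 were higher in the labelled knockdown libraries, while BMI1 and CBX2 did not pass the test. All 9 passed the low-count filter. Their count of 7 called genes is a share no higher than the background: of 13606 genes tested with edgeR's quasi-likelihood test at a Benjamini-Hochberg adjusted p of 0.05, 85.9% were called, 43.4% higher and 42.5% lower. So a call alone says little here, and sizes are given throughout. A stricter test against a 1.5-fold change (edgeR glmTreat) called 45.9% of all genes, 24.3% higher and 21.6% lower. It called 4 of the 9: EZH2 lower, and EZH1, JARID2 and CBX7 higher. The median size of the log2 change, sign ignored, was 0.53 over the 9 genes and 0.64 over all genes tested. CPM of the groups did not overlap for 8 of the 9 genes and for 85.8% of all genes tested, so non-overlap too says little. The plot of CPM by library shows how closely the replicates lay.

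**Figure D1:**
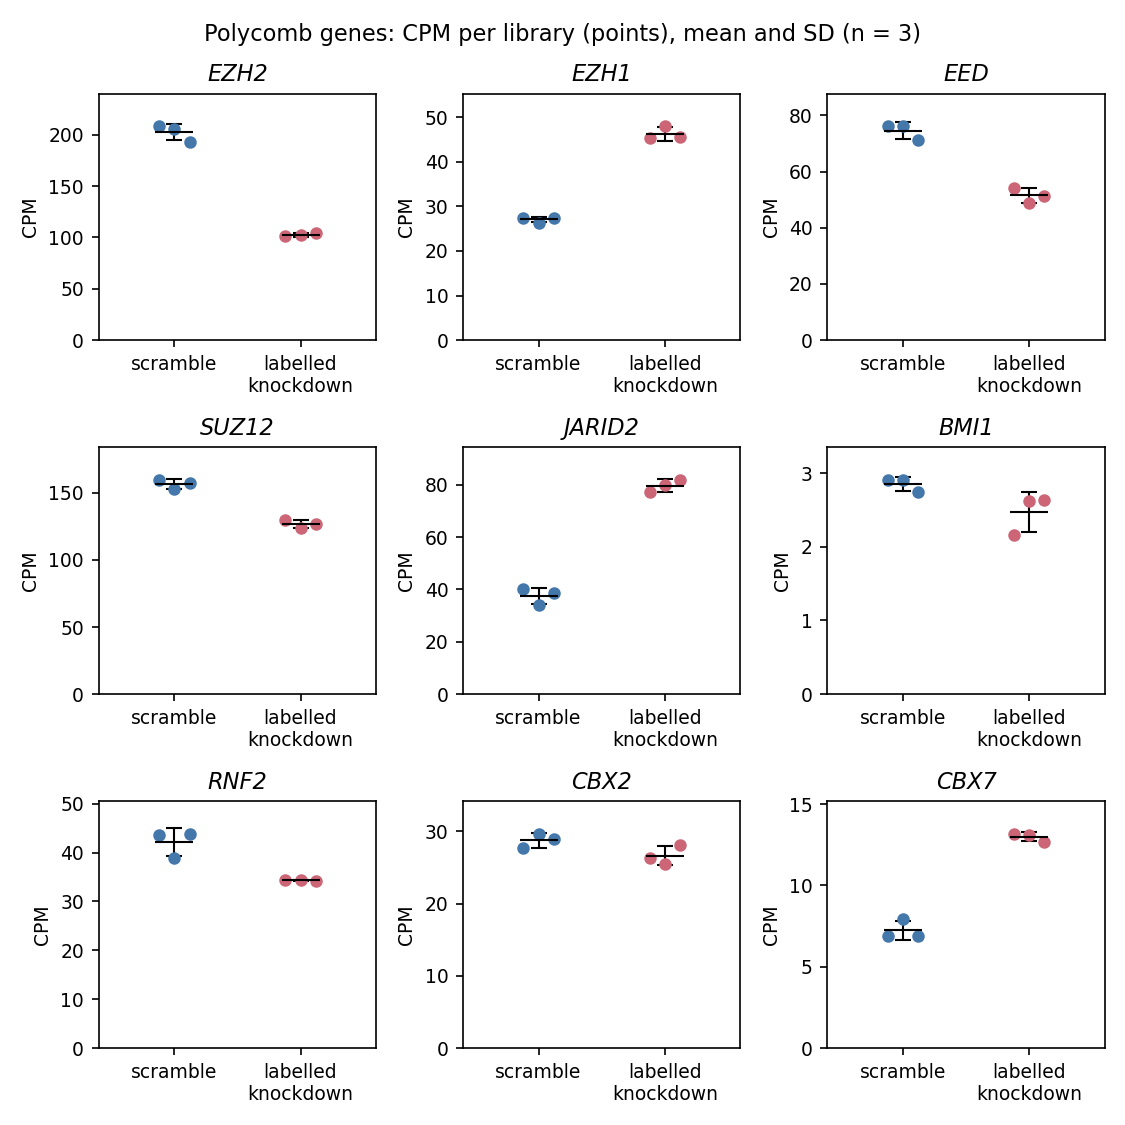
CPM (y axis, from 0) of each of the 9 genes in the 3 scramble and 3 labelled knockdown libraries, with points for libraries and bars for the mean and SD. The groups stand well apart for EZH2, EZH1, EED, SUZ12, JARID2 and CBX7, and the groups overlap for CBX2. Of all genes tested, 85.8% had no overlap.

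EZH2, the main histone H3 lysine 27 methyltransferase, was measured at 209, 206 and 193 CPM in scramble and at 101, 102 and 104 CPM in the labelled knockdown libraries. Every scramble library was higher than every library of the other group, and 85.8% of all genes tested were likewise without overlap. The log2 fold change was -0.99 ± 0.04 (SE; 95% interval -1.06 to -0.91; edgeR adjusted p = 4.28e-25), a drop of 49.5%. Of all genes tested, 68.2% changed by less than EZH2, so its change was not extreme for this comparison.

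EZH1, the second catalytic subunit, went the other way. It had 27.4, 26.3 and 27.5 CPM in scramble and 45.3, 48.1 and 45.5 CPM in the labelled knockdown libraries, with no overlap. It rose 1.71-fold (log2 fold change 0.77 ± 0.06 SE; edgeR adjusted p = 5.43e-16).

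The 2 catalytic genes therefore shifted against each other within each library. The ratio of EZH2 to EZH1 reads, which does not depend on scaling between libraries, was 7.62, 7.81 and 7.03 in scramble and 2.23, 2.12 and 2.28 in the labelled knockdown libraries, 3.38-fold smaller. The exact two-sided permutation test gave p = 0.1 with n = 3 per group, the smallest value this design allows, and 0.1 after adjustment over the 6 ratios computed. Per kilobase of transcript, the level of EZH2 was 76.7 ± 3.08 CPM per kilobase (SD, n = 3) in scramble and 38.8 ± 0.568 in the other group, while the level of EZH1 was 5.86 ± 0.140 and 10.0 ± 0.335. EZH2 thus stayed the more abundant of the pair in all 6 libraries. EZH1 made up 7.10% ± 0.365 of their summed level in scramble and 20.5% ± 0.591 in the labelled knockdown libraries. The gain of EZH1 was smaller than the loss of EZH2: their summed level was 82.6 ± 3.03 and 48.8 ± 0.661 CPM per kilobase, 0.591 times the scramble level.

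EED, which recognises the methyl mark, had 76.1, 76.3 and 71.1 CPM in scramble and 54.2, 48.9 and 51.3 CPM in the other group, again without overlap. It fell by 30.9% (log2 fold change -0.53 ± 0.05 SE; edgeR adjusted p = 5.96e-13). SUZ12, the scaffold of the core, had 160, 153 and 157 CPM against 130.0, 124 and 127 CPM. The groups were separate, and SUZ12 fell by 18.9% (log2 fold change -0.30 ± 0.04 SE; adjusted p = 7.72e-10). Neither gene passed the test against a 1.5-fold change. SUZ12 has a partial pseudogene copy, listed as SUZ12P at 3.65 ± 0.312 and 2.83 ± 0.307 CPM (SD, n = 3). Reads that fit both copies may have been left uncounted, and how many was not tested.

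The 3 core genes were not lowered in proportion. The EZH2 to SUZ12 read ratio was 1.31, 1.34 and 1.23 in scramble and 0.776, 0.823 and 0.818 in the labelled knockdown libraries. The EZH2 to EED read ratio was 2.74, 2.69 and 2.72 against 1.86, 2.09 and 2.03. Neither ratio overlapped between the groups (exact permutation p = 0.1 for each, n = 3 per group). Per kilobase, EED and SUZ12 were level with each other in scramble at 33.5 ± 1.32 and 34.9 ± 0.759 CPM per kilobase, less than EZH2. In the labelled knockdown libraries the levels were 23.2 ± 1.21 for EED and 28.3 ± 0.649 for SUZ12, and EZH2 remained the highest of the 3.

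JARID2, a DNA-binding cofactor of PRC2, showed the largest change among the 9. Its 40.1, 34.2 and 38.5 CPM in scramble stood against 77.1, 80.01 and 81.95 CPM in the labelled knockdown libraries. All 3 libraries of the second group were higher, 2.12-fold on the fitted scale (log2 fold change 1.08 ± 0.05 SE; 95% interval 0.98 to 1.19; edgeR adjusted p = 1.73e-21). Of all genes tested, 71.8% changed by less.

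RNF2, the E3 ligase subunit RING1B of PRC1, had 43.7, 38.9 and 43.9 CPM in scramble and 34.3, 34.4 and 34.2 CPM in the other group. The libraries labelled knockdown were nearly identical and all lower, by 18.7% (log2 fold change -0.30 ± 0.06 SE; edgeR adjusted p = 7.21e-06). RING1, its paralogue, rose from 53.7 ± 0.783 to 65.5 ± 2.15 CPM (SD, n = 3; log2 fold change 0.29 ± 0.05 SE; adjusted p = 6.44e-07). The RNF2 to RING1 read ratio was 0.824, 0.727 and 0.804 against 0.544, 0.512 and 0.516, without overlap (p = 0.1 by the exact permutation test, n = 3 in each group). Per kilobase, the summed level of the pair was 42.3 ± 0.978 and 46.9 ± 1.23 CPM per kilobase, so RNF2's lower level went with a higher total of the 2 ligase genes.

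CBX7, a chromodomain reader, was the least abundant of the called members. It had 6.90, 7.92 and 6.88 CPM in scramble and 13.2, 13.1 and 12.7 CPM in the labelled knockdown libraries, all 3 higher. The log2 fold change was 0.85 ± 0.10 (SE; edgeR adjusted p = 1.85e-10), or 1.80-fold. Its call against a 1.5-fold change (edgeR glmTreat adjusted p = 0.0026) was lost with DESeq2 (adjusted p = 0.0783). CBX2, a reader that also compacts chromatin, had 27.7, 29.7 and 28.9 CPM against 26.2, 25.5 and 28.1 CPM. These ranges overlapped, and CBX2 did not pass (log2 fold change -0.11 ± 0.06 SE; 95% interval -0.24 to 0.02; edgeR adjusted p = 0.096). Without scramble replicate 1 it did (log2 fold change -0.14; adjusted p = 0.048).

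The balance between the 2 CBX readers shifted toward CBX7 in every library of the second group. Per kilobase, CBX2 stayed the more abundant of the pair, at 6.19 ± 0.219 and 5.73 ± 0.286 CPM per kilobase (SD, n = 3), with CBX7 at 1.77 ± 0.145 and 3.18 ± 0.0695. The CBX2 to CBX7 read ratio was 4.01, 3.75 and 4.203 in scramble, above the 1.99, 1.95 and 2.22 of the other group (exact permutation p = 0.1, n = 3 in each).

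BMI1, the PCGF4 subunit known for repressing the CDKN2A locus, was counted at only 69, 61 and 61 reads in scramble and 54, 68 and 65 reads in the other group. That is 2.90, 2.91 and 2.74 CPM against 2.16, 2.62 and 2.63 CPM. The ranges did not overlap, as for 85.8% of all genes tested, but BMI1 did not pass (log2 fold change -0.21 ± 0.17 SE; 95% interval -0.55 to 0.14; edgeR adjusted p = 0.262). A difference of this size was not detectable at this depth, and without labelled knockdown replicate 1 the value was -0.12. The level itself is uncertain, since the files also list the read-through gene COMMD3-BMI1, which overlaps BMI1 in RefSeq's annotation and had 0 reads in all 6 libraries. Reads that lie in both may have been given to neither. COMMD3, the upstream gene of that read-through, rose from 10.8 ± 1.13 to 22.9 ± 0.962 CPM (SD, n = 3; log2 fold change 1.09 ± 0.08 SE; edgeR adjusted p = 1.24e-15).

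PCGF2 (MEL18), the paralogue nearest to BMI1 in role, fell from 94.3 ± 4.57 to 62.2 ± 4.07 CPM (SD, n = 3; log2 fold change -0.60 ± 0.05 SE; edgeR adjusted p = 9.68e-15). It was the largest part of the PCGF level per kilobase in both groups, 40.0% ± 1.31 and 29.2% ± 1.97. BMI1 as counted made up 1.08% ± 0.0184 and 1.04% ± 0.110. PCGF3 and PCGF5, which belong to variant PRC1, took larger shares in the labelled knockdown libraries, 18.6% ± 0.499 against 12.5% ± 0.691 and 21.9% ± 0.917 against 15.7% ± 0.964. The BMI1 to PCGF2 read ratio was 0.0301, 0.0299 and 0.0308 in scramble and 0.0372, 0.0423 and 0.0396 in the other group (exact permutation p = 0.1, n = 3 per group), and it carries the uncertainty of the BMI1 count.

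**Figure D2:**
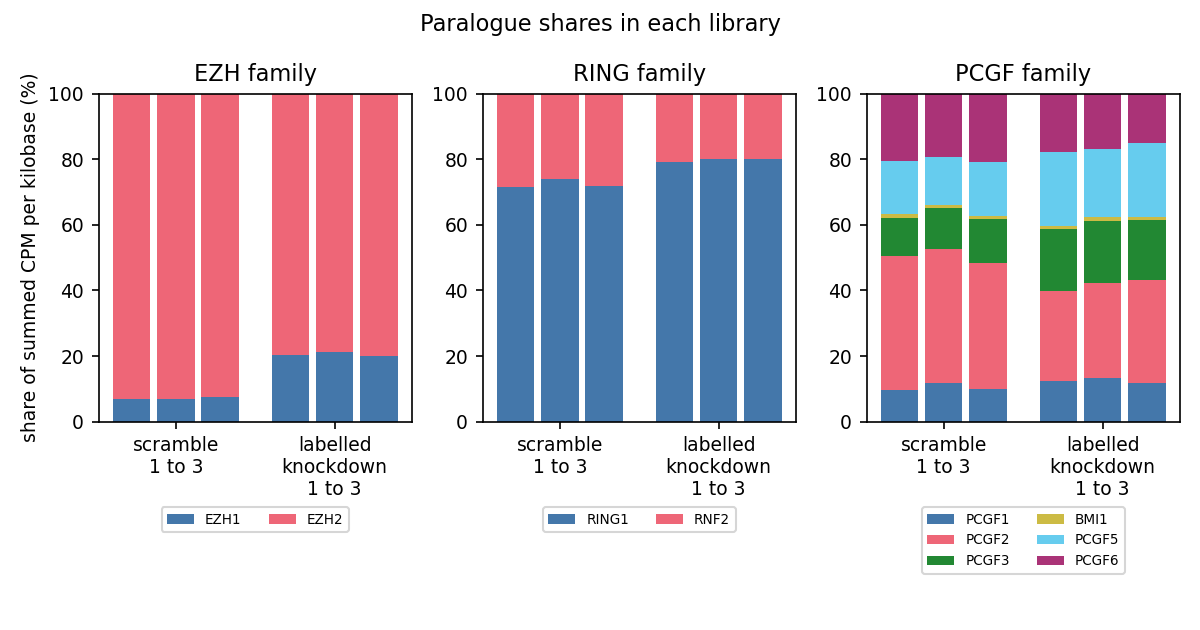
Share (%) of each paralogue in the summed CPM per kilobase of its family, 1 bar per library, scramble 1 to 3 on the left and labelled knockdown 1 to 3 on the right of each panel. EZH1 takes 7.10% of the EZH level in scramble and 20.5% in the other group, and RNF2 drops from 27.6% to 20.3% of the RING level.

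Ranked by level per kilobase, the 9 genes stood in scramble in the order EZH2, SUZ12, EED, RNF2, JARID2, CBX2, EZH1, CBX7 and BMI1. SUZ12 and EED did not differ beyond their spread there, nor did JARID2 (6.53 ± 0.523 CPM per kilobase) and CBX2 (6.19 ± 0.219). EZH1 (5.86 ± 0.140) lay just under CBX2, without overlap. In the labelled knockdown libraries JARID2 came next after EED, at 13.8 ± 0.422 CPM per kilobase, ahead of EZH1 at 10.0 ± 0.335 and RNF2 at 9.52 ± 0.0266, and CBX2 followed at 5.73 ± 0.286. These levels rest on 1 annotated transcript length per gene, and that of BMI1 is uncertain.

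Other PRC2 subunits moved both ways. Of 9 on the list, 8 were matched and tested: 4 rose and 3 fell, where 43.4% of all genes tested rose and 42.5% fell. The median log2 fold change was 0.12, against 0.01 over all genes tested. PHF1, a PRC2.1 subunit that binds methylated lysine 36 of histone H3, rose from 34.1 ± 0.328 to 109 ± 3.71 CPM (SD, n = 3; log2 fold change 1.68 ± 0.05 SE). AEBP2, the zinc-finger partner of JARID2 in PRC2.2, fell from 90.4 ± 4.67 to 29.2 ± 1.79 CPM (log2 fold change -1.63 ± 0.05 SE). JARID2 and AEBP2, which occur in the same form of the complex, thus changed in opposite directions. LCOR was lower (-0.63 ± 0.05) and the histone chaperone RBBP4 higher (0.57 ± 0.05). The adjusted p-values of these 4 in edgeR's quasi-likelihood test ran from 1.79e-29 to 5.42e-14.

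Of 10 other canonical PRC1 genes on the list, 2 rose and 6 fell (median log2 fold change -0.41). The shares over all genes tested were 43.4% higher and 42.5% lower. Besides PCGF2, PHC1, a polyhomeotic subunit that forms polymers through its SAM domain, fell from 8.25 ± 0.767 to 1.47 ± 0.307 CPM (SD, n = 3; log2 fold change -2.49 ± 0.16 SE). Its paralogue PHC2 rose from 133 ± 4.45 to 237 ± 5.66 CPM (0.83 ± 0.04). The third polyhomeotic gene, PHC3, fell from 80.6 ± 4.40 to 50.2 ± 3.14 CPM (-0.69 ± 0.05), so PHC2 was the 1 of these 3 genes that rose. SCML1 (-0.82 ± 0.04) and SCML2 (-0.95 ± 0.07) fell.

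Of 18 variant PRC1 genes, 7 were higher and 8 lower. AUTS2, among the 8, passed the low-count filter only through scramble, so the count is a description and no median is given. Genes at large were 43.4% higher and 42.5% lower. AUTS2, which joins PRC1 with PCGF5 or PCGF3, had 1605 reads in the scramble libraries together and 0 in the others, at least 604-fold lower against a floor of 3 reads over the group. The deubiquitinase gene USP7 (log2 fold change -0.93 ± 0.03 SE), MGA of the PCGF6 complex (-1.07 ± 0.04) and the corepressor gene BCOR of the PCGF1 complex (-1.05 ± 0.05) were lower. USP7, MGA and BCOR each had an edgeR quasi-likelihood adjusted p of at most 1.86e-21.

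**Figure D3:**
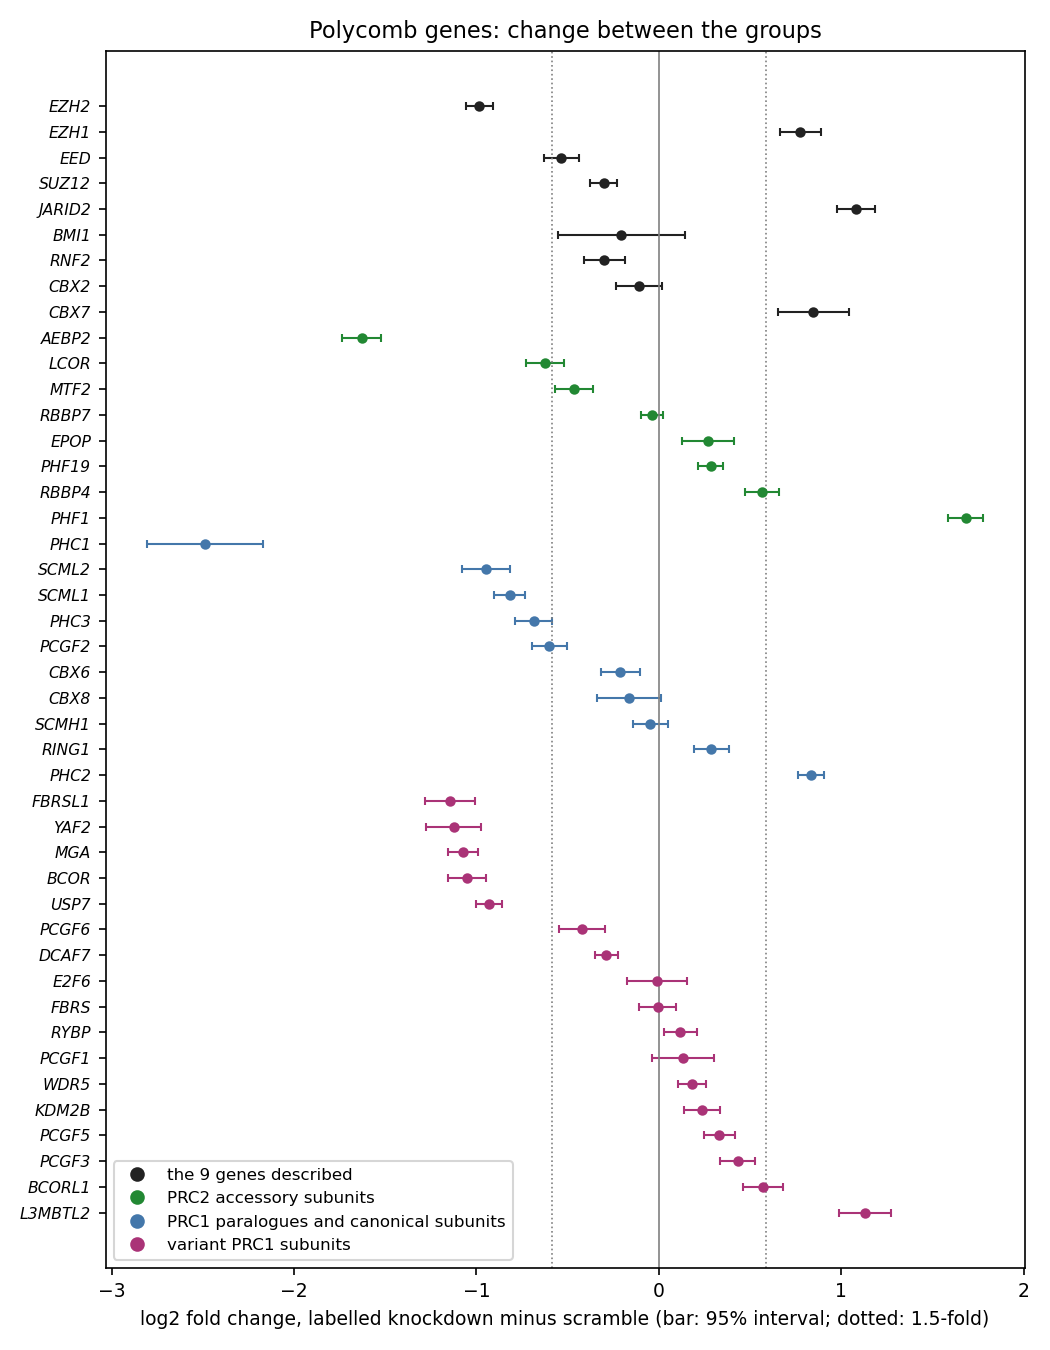
Log2 fold change, labelled knockdown minus scramble (x axis), of the 9 genes and of other tested Polycomb subunits, with 95% intervals, colours for the list and dotted lines at a 1.5-fold change. AUTS2 is left out because it had 0 reads in the labelled knockdown libraries. PHC1 at -2.49 and PHF1 at 1.68 mark the ends.

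Genes of the complex that removes ubiquitin from H2A are mostly partners of a single catalytic subunit. Of 10 tested, 2 rose and 7 fell, where 43.4% of all genes tested rose and 42.5% fell, and the median log2 fold change was -0.24. Its catalytic subunit BAP1 rose from 111 ± 1.52 to 167 ± 7.65 CPM (SD, n = 3; log2 fold change 0.60 ± 0.04 SE), whereas its partner ASXL2 fell from 204 ± 5.44 to 75.9 ± 2.25 CPM (-1.43 ± 0.04). MBD6 (-1.39 ± 0.05) and the glycosyltransferase gene OGT (-0.77 ± 0.03) were lower.

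Over all genes tested, 42.5% fell and 43.4% rose. Of 9 tested H3K27 demethylase genes and opposing methyltransferase and acetyltransferase genes, 8 fell and 1 rose (median -0.64). The 1 higher gene was KDM6A, a demethylase of the mark that EZH2 makes, at 19.9 ± 0.603 and 43.3 ± 1.39 CPM (SD, n = 3; log2 fold change 1.125 ± 0.06 SE). KDM6B, the other demethylase of this mark, fell from 27.5 ± 2.36 to 14.7 ± 0.709 CPM (-0.90 ± 0.07). KMT2A (-0.70 ± 0.03), KMT2C (-0.77 ± 0.04) and NSD1 (-0.77 ± 0.04), methyltransferase genes whose marks are found on active chromatin, were lower. All genes named from both lists passed edgeR's quasi-likelihood test, with adjusted p-values of at most 2.03e-14.

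Genes reported elsewhere as repressed by EZH2 in cancer cells moved both ways. Of 26 on the list, 12 were higher, 6 lower and 2 not called, and 6 did not pass the low-count filter. The shares over all genes tested were 43.4% higher and 42.5% lower. Of the 12, CDH1, CXCL10 and SFRP1 passed the filter only through the group where they were high, so the count is a description and no median is given. CIITA, the master activator of MHC class II genes, rose from 0.742 ± 0.211 to 29.9 ± 0.602 CPM (SD, n = 3; log2 fold change 5.31 ± 0.13 SE). The inhibitors of metalloproteases TIMP3 (2.85 ± 0.04) and TIMP2 (1.10 ± 0.03), the Wnt antagonist DKK1 (1.78 ± 0.03) and the cell-cycle inhibitor CDKN1C (2.34 ± 0.13) were higher. SFRP1, another Wnt antagonist, was at 0 reads with the scrambled shRNA and at 131 with the directed one, at least 38.7-fold higher. CDH1, the epithelial adhesion gene E-cadherin, had 3 and 152 reads (ratio 44.9, 95% counting interval 15.1 to 220.0). CXCL10 had 1 and 120 reads (ratio 106, 95% counting interval 18.7 to 4232). KLF2 went the other way, from 50.9 ± 1.55 to 9.99 ± 0.673 CPM (-2.35 ± 0.07). CIITA, TIMP3, TIMP2, DKK1, CDKN1C and KLF2 passed edgeR's quasi-likelihood test, with adjusted p-values of at most 5.82e-19. For CDH1, CXCL10 and SFRP1 no test is given, because they passed the filter through 1 group only. CDKN2A, the classic target of BMI1 and CBX7, had 1 read in scramble replicate 1 and 0 in the other 5 libraries, and CDKN2B had 0 in all 6. A count of 0 allows up to 0.0397 CPM in the labelled knockdown libraries (3 reads over the group, counting error only). At such counts a silenced gene and a gene missing from these cells' genome cannot be told apart, and neither was tested.

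Most developmental factor genes that carry Polycomb in embryonic stem cells were hardly read. Of 48, 31 stayed under 1 CPM in both groups and 15 had 0 reads in every library. The filter kept 20, of which 14 were lower, 5 higher and 1 not called, where 42.5% of all genes tested were lower and 43.4% higher. Of these 20, 4 reached the filter's limit of 0.413 CPM in all scramble libraries only and 3 in all labelled knockdown libraries only, FOXA1, NKX2-1, WT1 and FOXD3 among them, so these counts too are a description. WT1 rose from 0.0889 ± 0.0410 to 16.0 ± 0.651 CPM (SD, n = 3; log2 fold change 7.40 ± 0.22 SE), GATA6 from 6.003 ± 0.320 to 43.4 ± 0.235 CPM (2.86 ± 0.07) and PAX8 from 2.29 ± 0.0709 to 18.1 ± 0.841 CPM (2.98 ± 0.11). FOXD3, at trace level, was higher too (2.20 ± 0.44). FOXA1, a pioneer factor of luminal breast cells, fell from 21.8 ± 1.58 to 0.0532 ± 0.0240 CPM (-8.55 ± 0.22), and FOXA2 (-1.87 ± 0.05), ZIC2 (-2.35 ± 0.07), NKX2-1 (-5.47 ± 0.38) and PAX9 (-2.27 ± 0.21) fell as well. GATA6, PAX8, FOXA2, ZIC2 and PAX9 passed edgeR's quasi-likelihood test (adjusted p at most 1.92e-12). For WT1, FOXD3, FOXA1 and NKX2-1 no test is given, because they reached the filter's limit in 1 group only.

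**Figure D4:**
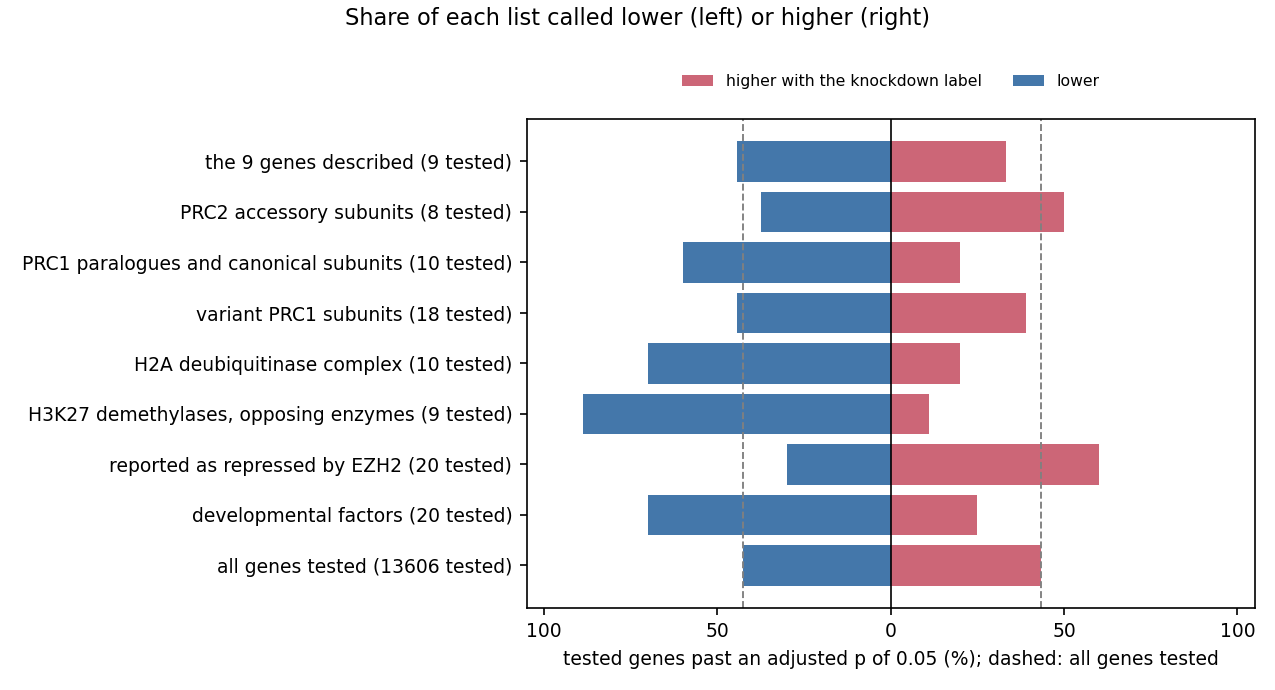
Share (%) of the tested genes of the Polycomb, opposing and target gene lists that passed an adjusted p of 0.05, lower to the left and higher to the right, with dashed lines at the shares over all 13606 genes tested (42.5% lower and 43.4% higher). Among the lists plotted, the H3K27 demethylases and opposing enzymes reach furthest to the left, with 8 of 9 genes lower. The 12 of 20 higher genes of the EZH2 list include 3 that passed the filter through 1 group only. The lower genes of the variant PRC1 list include AUTS2, which passed it only through scramble. Of the 20 developmental factors tested, 4 reached the filter's limit in scramble only and 3 in the labelled knockdown libraries only.

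Markers of fibroblasts, blood cells and basal cells were low in both groups but not level between them. Counts by direction stand beside 43.4% higher and 42.5% lower over all genes tested. Of 7 fibroblast markers, 4 were tested and all 4 were higher, with a summed level of 5.05 to 6.25 CPM in scramble and 26.3 to 29.6 CPM in the other group, while DCN had 0 reads in all libraries. COL1A2 (6.84 ± 0.32), PDGFRB (2.84 ± 0.14) and COL1A1 (1.21 ± 0.12) are given as log2 fold change and SE, and LUM had 0 and 47 reads. COL1A2 and LUM passed the low-count filter only through the labelled knockdown libraries. Of 6 blood cell markers, 2 were tested, both kept by the low-count filter only through the labelled knockdown libraries. The 6 summed to 0.360 to 0.716 and 6.87 to 7.61 CPM. The tested 2 were CD14, at 0.234 ± 0.127 and 6.19 ± 0.433 CPM, and LYZ, at 0.199 ± 0.216 and 0.807 ± 0.00481 CPM (SD, n = 3). PTPRC, which defines leukocytes, stayed at 0.133 and 0.145 CPM. Of 6 basal and myoepithelial markers, 3 were tested, 2 higher and 1 lower, with sums of 3.5998 to 5.15 and 12.3 to 13.7 CPM, and KRT5 and KRT14 had 0 reads throughout. OXTR (2.44 ± 0.14) and TP63 (2.91 ± 0.40) were the higher and ACTA2 (-0.43 ± 0.20) the lower ones on the log2 scale. Of 10 luminal markers, 9 were tested, 4 higher and 5 lower, with sums of 623 to 648 and 637 to 649 CPM. Those sums were mostly the keratins KRT8 (279 ± 6.23 and 260.2 ± 2.30 CPM) and KRT18 (286 ± 9.50 and 221 ± 3.69 CPM). Beneath them SPDEF rose from 2.34 ± 0.472 to 61.5 ± 0.976 CPM, XBP1 from 29.6 ± 2.30 to 76.5 ± 1.52 CPM and GATA3 from 5.91 ± 0.134 to 15.5 ± 0.311 CPM, while FOXA1 fell as given above. TFF1 had a log2 fold change of 3.41 ± 0.52, and PGR had 66 and 0 reads. TP63 and TFF1 passed the low-count filter only through the labelled knockdown libraries, and PGR and FOXA1 only through scramble. The counts of markers by direction are thus a description. Counts for alignments that were not unique, where a read may enter for each place, made up 34.0% to 34.2% of all counts in scramble. In the other files they made up 29.3% to 29.6%. The part of these differences in the Polycomb results was not tested. In bulk RNA, a change in the make-up of the cells and a change within each cell cannot be told apart.

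By Pearson correlation of log2(CPM + 1) over the 6 libraries, the genes most like EZH2 were PKIA (r = 0.9999), ZNF883, IDH3A, STK24 and MAK16 (r = 0.9998 each). The points are 2 groups of 3, so a high r says little more than that a gene was lower in the second group by a steady amount: 31.5% of all other tested genes had r above 0.95. The change was a log2 fold change of -1.08 for PKIA, -5.42 for ZNF883 and -0.65 for STK24, so likeness in shape did not mean likeness in size.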

How the data were processed

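The deposited files hold raw read counts per gene symbol, 1 per library, not normalized by the authors. Per the labels' protocols, libraries came from a stranded mRNA kit with single reads of 50 bases. The submitters' processing notes name hg19, HTSeq, bcl2fastq and TopHat2 2.0.8b. For HTSeq's strand and overlap settings and the annotation, the choice is not given in the sources used here. Overlapping genes (BMI1) are therefore uncertain. Summary lines for unassigned reads were left out of library sizes. Counts in no gene made up 14.4% to 15.0% of all counts, summary lines included, in scramble and 11.0% to 11.1% in the other group. Ambiguous counts made up 0.534% to 0.543% and 0.588% to 0.597%.

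Samples were grouped by title. Genes kept by filterByExpr (13606 of 23228) were scaled by TMM and tested with edgeR 4.0.16 (R 4.3.3; robust glmQLFit and glmQLFTest, a 2-sided test of group with no covariate, Benjamini-Hochberg over all genes), and with glmTreat against a 1.5-fold change. SE is the log2 fold change over the root of F. CPM use TMM-scaled library sizes. Levels per kilobase use the longest GENCODE v29 APPRIS principal transcript. The fit was also run on simulated data, with the same dispersion for every gene and few changed genes. In the real data most genes were called, so that run says little about false calls here. Replicates were not duplicates of each other (chi-square over its degrees of freedom 1.69 to 3.52). A count of 0 was set against a floor of 3 reads over the group. Intervals and floors cover counting error only.

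Members and lists were chosen with earlier results of these data known. Named genes were the members, SCUBE3, the partners in the read ratios, the 5 genes most correlated with EZH2 and, from each list, up to 4 genes with the smallest adjusted p plus those with no overlap and a log2 change of at least 2. COMMD3, SUZ12P, PHC3, KRT8, KRT18, KDM6B, CDKN2A, CDKN2B, ESR1, SPARC, DCN, PTPRC, KRT5, KRT14 and the PCGF shares were chosen after their values were seen. Of the listed symbols, 6 were matched through RefSeq synonyms, and EZHIP, KMT2B and KMT2D were not matched. A canonical PRC1 gene was left out of its list and is not reported here. Alternatives were DESeq2 1.42.0 and its size factors, upper-quartile scaling, library totals, limma-voom (limma 3.58.1), no low-count filter, 1 CPM in 3 libraries, a replicate block, an adjusted p of 0.01 and leaving out each library.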

Additional observations from a re-analysis of the deposited data

How the results depend on the processing

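The 7 called members kept their direction and call under all 15 alternatives. EZH2's log2 fold change ran from -1.02 to -0.93, JARID2's from 1.01 to 1.13, EZH1's from 0.75 to 0.83 and CBX7's from 0.81 to 0.91. BMI1 was called under none, with a range of -0.25 to -0.12, the latter without labelled knockdown replicate 1. CBX2 was called only without scramble replicate 1 (-0.14; adjusted p = 0.048); over the settings that leave out a library its log2 fold change ran from -0.15 to -0.076. The number of genes called ran from 11065 at an adjusted p of 0.01 to 12483 without a low-count filter. DESeq2 called 3 members against a 1.5-fold change. SCUBE3's direction turned without scramble replicate 3 (-0.050; adjusted p = 0.764), in a range of -0.050 to 0.080 over the left-out libraries, and the cause was not tested. The lower call of ACTA2, among the basal markers, was lost in 8 settings. Same-numbered libraries did not deviate together (r of 0.001 to 0.017), so the numbers were not taken as pairs. With the replicate number as a block, 11706 genes and the same 7 members were called. Low reads limit BMI1.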

Other observations

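RB and E2F genes were called about as often as genes at large. Of 12 tested, 6 were lower and 4 higher in the labelled knockdown libraries, where 42.5% of all genes tested were lower and 43.4% higher, and the median log2 fold change was -0.17. E2F4, an E2F that mostly represses, fell from 310.1 ± 9.85 to 89.6 ± 2.11 CPM (SD, n = 3; log2 fold change -1.79 ± 0.04 SE), and RB1, the retinoblastoma gene, from 193 ± 6.19 to 95.5 ± 1.48 CPM (-1.01 ± 0.04). TFDP1, the shared dimer partner, was lower (-0.67 ± 0.03) and E2F5 higher (1.58 ± 0.09). Each passed edgeR's quasi-likelihood test, with adjusted p-values of at most 8.87e-20.

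Proliferation markers moved both ways, 10 lower and 5 higher of 20, with a median of -0.05. Genes at large were 42.5% lower and 43.4% higher. MKI67 fell from 1713 ± 48.7 to 950 ± 24.5 CPM (SD, n = 3; log2 fold change -0.85 ± 0.03 SE) and RRM2 from 572 ± 19.6 to 317 ± 7.23 CPM (-0.85 ± 0.03), both close in size to EZH2. CCNA2 (1.08 ± 0.04) and CCNB1 (0.73 ± 0.03), cyclins of later cell-cycle phases, were higher. Adjusted p-values of these 4 in edgeR's quasi-likelihood test were at most 1.48e-22.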
